A study of Mus musculus with 3 samples.

Results

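The genes described here were every symbol in the deposited feature lists that named a Wnt, Frizzled, Sfrp, Dickkopf or R-spondin gene, plus Wif1, Frzb, Lrp5, Lrp6, Axin2 and Lgr5. They numbered 47 of 32285 features: 19 ligands, 10 Frizzled receptors, 6 ligand-binding antagonists, 4 Dickkopf genes, 4 R-spondins, 2 co-receptors, Lgr5 and Axin2. Symbols alone chose the 47, and a minimum level then set which were described by class: 35 had at least 50 UMIs (unique molecular identifiers, each standing for 1 captured RNA molecule) over all kept cells.

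Wnt proteins are secreted lipid-modified ligands that bind Frizzled receptors together with the co-receptors Lrp5 and Lrp6, and the canonical branch ends in β-catenin entering the nucleus and switching on targets such as Axin2, itself a brake on the pathway. R-spondins amplify the signal through receptors such as Lgr5. Secreted Frizzled-related proteins (Sfrp1, Sfrp2, Sfrp4, Sfrp5 and Frzb) and Wif1 bind the ligands, whereas Dickkopf proteins act on the co-receptors. In regenerating muscle the pathway is known for its part in the step from dividing myoblasts to differentiating myocytes and in fibrosis of aged muscle.

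Cells came from tibialis anterior muscle of C57/BL6J mice, collected 4 days after injury by BaCl2 injection, and there were 3 libraries of droplet single-cell RNA-seq, 1 per group. Young PBS was from mice of 3 to 4 months given PBS, old PBS from mice of 24 to 26 months given PBS, and old rMETRNL from mice of 24 to 26 months given recombinant meteorin-like protein, a secreted factor. The injury was common to all groups. Each library pooled 3 muscle samples, so each group stands on a single library. Groups could not be tested against each other, and all intervals given cover counting error alone. Sets of 3 values follow the order young PBS, old PBS, old rMETRNL, and ratios come with 95% intervals.

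The libraries held 179295668 to 228966697 UMIs in 12168 to 14012 barcodes, of which 79.1 to 84.5% were kept. Between 58 and 80 barcodes were shared by each pair of libraries, and 24 to 33 of these were kept in both. Kept cells fell into 10 classes by markers that excluded the Wnt pathway members. Class names carry "-like" because they rest on transcripts alone. Fibro/adipogenic progenitor-like (FAP-like) cells numbered 1631, 1348 and 1685, and all 12 of their markers were detected. Tenocyte-like cells numbered 196, 121 and 212, with all 9 markers detected. Pericyte/smooth muscle-like and glial-like classes had under 100 cells in at least 1 library and were left out of rankings by class. Levels are CPM, a gene's UMIs per 1000000 UMIs of the same class in the same library. They were not divided by transcript length, so the comparisons are of 1 gene across classes and libraries.

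The members made up 0.0508% of all kept UMIs, and Sfrp2 alone supplied 38.7% of those. Over the 8 classes with at least 100 cells in every library, 11 of 35 had their highest level in tenocyte-like cells and 10 in FAP-like cells. Myocyte-like cells were highest for 5, endothelial-like for 4, MuSC/myoblast-like (muscle stem cell and myoblast) for 3, dendritic-like for 1 and T/NK-like for 1. Macrophage/monocyte-like cells, the most numerous class, were highest for 0. The class was the same in all 3 libraries for 9 of the 11 tenocyte-like genes, 5 of the 10 FAP-like genes and 1 of the 5 myocyte-like genes. With the 2 small classes ranked as well, pericyte/smooth muscle-like cells were highest for 7 (Fzd4, Fzd5, Fzd7, Lrp5, Lgr5, Wnt4 and Wnt5b) and glial-like cells for 5 (Wnt6, Wnt16, Frzb, Fzd3 and Sfrp5), which left 10 for tenocyte-like, 7 for FAP-like, 2 for myocyte-like, 1 for endothelial-like and 1 for MuSC/myoblast-like cells. From here on, "highest" refers to the 8 larger classes.

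**Figure D1:**
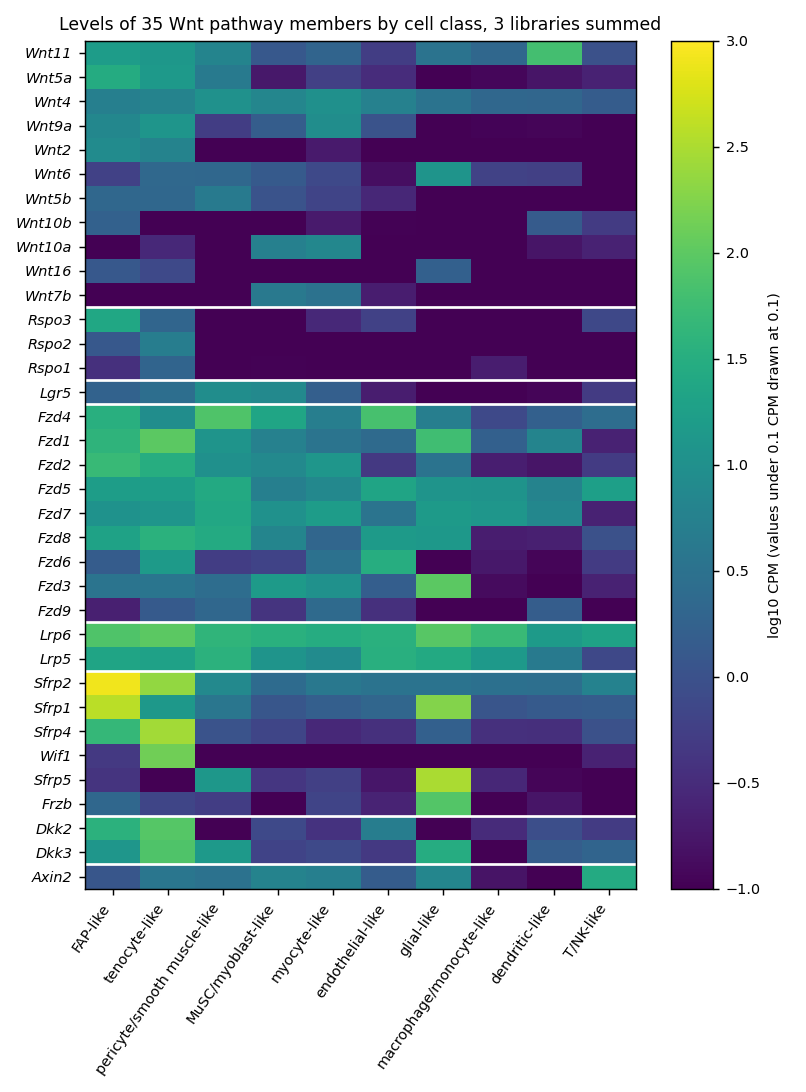
Heat map of the 35 members with at least 50 UMIs (rows, grouped by role with white lines between ligands, R-spondins, Lgr5, Frizzled receptors, co-receptors, ligand-binding antagonists, Dickkopf genes and Axin2) in 10 cell classes (columns), with colour giving log10 CPM of the 3 libraries summed and values under 0.1 CPM drawn at 0.1. Sfrp2 and Sfrp1 are brightest in FAP-like cells, Wif1 is brightest in tenocyte-like cells at 137 CPM, and Wnt11 peaks in dendritic-like cells at 63.7 CPM.

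Among the ligands, Wnt5a, which mostly signals without β-catenin, was highest in FAP-like cells of every library. Its level was 30.8, 23.0 and 30.5 CPM. The old PBS library was the lowest of the 3. The ratio of old PBS to young PBS was 0.748 (0.682 to 0.819) and that of old rMETRNL to old PBS was 1.32 (1.21 to 1.45), both short of 1.5-fold.

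Wnt2, a canonical ligand, was at 6.65, 7.18 and 11.4 CPM in FAP-like cells. It was 1.59 times as high in old rMETRNL as in old PBS (1.36 to 1.88), though 1.33 times with FAP-like sub-clusters weighted equally and 1.49 times at clustering resolution 0.4, while old PBS and young PBS differed by less than counting error (ratio 1.08, 0.902 to 1.29). In tenocyte-like cells Wnt2 was at 1.85, 10.6 and 8.67 CPM in the same order, from 8, 22 and 34 UMIs, and the ratio of old PBS to young PBS was 5.72 (2.45 to 14.9). Wnt10b, known for holding back adipogenesis, was highest in FAP-like cells when libraries were summed, at 1.04, 1.98 and 2.32 CPM, with a ratio of old PBS to young PBS of 1.89 (1.27 to 2.84), or 1.49 with FAP-like sub-clusters weighted equally.

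Wnt11, a ligand of cell movement and polarity, was the 1 ligand whose highest level, among the ranked classes, lay outside stroma and muscle. Dendritic-like cells held 45.5 CPM (exact Poisson interval 40.5 to 51.0), 76.8 CPM (68.6 to 85.8) and 73.1 CPM (66.9 to 79.8). Both old libraries lay above the young one, with a ratio of old PBS to young PBS of 1.69 (1.44 to 1.98) and of old rMETRNL to old PBS of 0.952 (0.826 to 1.10). When dendritic-like cells were split by a UMI of Ccr7, the receptor of migrating dendritic cells, Wnt11 was higher in the Ccr7 cells of each library. These held 64.9, 86.1 and 108 CPM against 34.1, 64.4 and 49.8 CPM in cells without it. Ccr7 cells were 228 of 601, 197 of 353 and 271 of 654 dendritic-like cells, so their share was highest in old PBS. Old PBS was above young PBS within either kind, while old rMETRNL was above old PBS in Ccr7 cells and below it in the others. The part of the Ccr7 share in the ratios was not tested. FAP-like cells held 14.5, 18.4 and 16.5 CPM, and tenocyte-like cells 10.7, 10.1 and 17.8 CPM, with a ratio of old rMETRNL to old PBS of 1.76 (1.07 to 3.02) in the latter, or 1.37 with doublet calls kept.

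The muscle lineage had ligands of its own. Wnt10a was highest in myocyte-like cells of every library, at 6.89, 5.91 and 8.2 CPM from 31, 17 and 25 UMIs. In MuSC/myoblast-like cells it was at 4.85, 4.32 and 6.83 CPM, whereas FAP-like cells held 0, 0 and 3 UMIs. Wnt7b was highest in MuSC/myoblast-like cells when libraries were summed, at 4.50, 4.71 and 3.46 CPM, and no library departed from another beyond counting error. Wnt7a, the ligand best known in muscle stem cells, had 2 UMIs in all kept cells.

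Wnt4, which is expressed in muscle progenitors, was highest in myocyte-like cells when libraries were summed, at 7.11, 18.8 and 6.23 CPM. Its ratio was 2.64 (1.67 to 4.22) for old PBS over young PBS and 0.332 (0.186 to 0.569) for old rMETRNL over old PBS. Myocyte-like cells numbered 131, 462 and 191 and differed in depth between libraries, with median UMI counts of 35168, 2251.5 and 3296. The part of either in these ratios was not tested. Of 11 members counted in myocyte-like cells, 5 were past 1.5-fold in each comparison, where 43.1% (old PBS over young PBS) and 34.8% (old rMETRNL over old PBS) of all 9502 genes were. Wnt9a, with libraries summed, was highest in tenocyte-like cells, at 7.65, 14.0 and 15.8 CPM, with a ratio of old PBS to young PBS of 1.83 (1.07 to 3.11).

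The other expressed ligands were sparse. Wnt5b and Wnt16 were highest in FAP-like cells at 2.14 and 1.26 CPM over the 3 libraries, though Wnt5b stood at 2.13 CPM in tenocyte-like cells. In FAP-like cells their levels were 2.31, 1.75 and 2.23 CPM for Wnt5b and 1.31, 0.955 and 1.41 CPM for Wnt16, and no library departed from another beyond counting error. Wnt6, with libraries summed, was highest in tenocyte-like cells of the ranked classes, at 0.927, 3.86 and 2.80 CPM on 4, 8 and 11 UMIs, and reached 11.8 CPM in the small glial-like class. The remaining 8 ligands had under 50 UMIs in all kept cells: Wnt1 had 38, Wnt2b 33, Wnt3 7, Wnt9b 7, Wnt8b 4, Wnt7a 2, Wnt8a 1 and Wnt3a 0. The same held for Fzd10 with 33 UMIs, Rspo4 with 13, Dkk1 with 11 and Dkk4 with 2.

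Of the R-spondins, Rspo3 and Rspo2 were lower in FAP-like cells of old PBS than of young PBS. Rspo3 was highest in this class in every library, at 35.2 CPM (33.5 to 37.0), 15.6 CPM (14.2 to 17.0) and 18.8 CPM (17.5 to 20.1). Both old libraries lay well below the young one. Old PBS stood at 0.442 of young PBS (0.398 to 0.490), and the ratio of old rMETRNL to old PBS was 1.20 (1.07 to 1.35). Thinned to 2000 UMIs per cell, 7.68% (exact binomial interval 6.43 to 9.08), 3.39% (2.48 to 4.51) and 3.61% (2.77 to 4.62) of FAP-like cells had an Rspo3 UMI. Without thinning the shares were 39.7, 17.1 and 23.6%. Macrophage/monocyte-like cells, which should lack the gene, had 0.0482, 0.0512 and 0.0149% after thinning. Median UMI counts were 26077, 21994.5 and 24612 in FAP-like cells and 14073, 14618.5 and 14274 in macrophage/monocyte-like cells.

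Rspo2 rested on few UMIs. FAP-like cells held 50, 13 and 89, that is, 1.11, 0.428 and 2.02 CPM. The old PBS library was the lowest, with a ratio to young PBS of 0.386 (0.192 to 0.721), and old rMETRNL was 4.73 times as high as old PBS (2.63 to 9.23). Tenocyte-like cells, where Rspo2 was highest in every library, held 5.56, 1.45 and 6.12 CPM from 24, 3 and 24 UMIs, with ratios of 0.260 (0.0501 to 0.856) and 4.23 (1.28 to 21.9). Rspo1 was highest in tenocyte-like cells, at 0.695, 4.82 and 1.78 CPM on 3, 10 and 7 UMIs.

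Lgr5, an R-spondin receptor, was highest in MuSC/myoblast-like cells of every library, at 7.94, 11.6 and 5.44 CPM. Old PBS was the highest of the 3, with a ratio of old rMETRNL to old PBS of 0.470 (0.324 to 0.682). In FAP-like cells the level was 2.68, 1.65 and 1.11 CPM, and the ratio of old PBS to young PBS was 0.613 (0.432 to 0.859). This ratio was 0.854 with FAP-like sub-clusters weighted equally and 0.733 at clustering resolution 1.6.

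The class with the highest level differed from one Frizzled receptor to the next. Fzd2 was highest in FAP-like cells at 58.3, 43.8 and 42.6 CPM, with a ratio of old PBS to young PBS of 0.751 (0.702 to 0.802). Fzd1 was highest in tenocyte-like cells at 123, 88.7 and 80.8 CPM, and its ratio of old PBS to young PBS there was 0.722 (0.608 to 0.856). Fzd8 was highest in the same class at 43.3, 37.1 and 28.6 CPM. None of these 3 receptors passed 1.5-fold in either comparison in the class named.

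Fzd4, the receptor for norrin and for Wnts in vessel growth, was highest in endothelial-like cells at 73.7, 65.7 and 66.7 CPM. Fzd6, a receptor of planar polarity, was highest there too at 35.1, 30.1 and 26.8 CPM, and neither passed 1.5-fold. Fzd5, also highest there when libraries were summed, held 17.5, 33.4 and 19.1 CPM, so that old PBS stood above both others. Its age ratio, old PBS over young PBS, was 1.91 (1.56 to 2.34), and its treatment ratio, old rMETRNL over old PBS, was 0.571 (0.472 to 0.691). Fzd7 in endothelial-like cells also peaked in old PBS (2.29, 5.69 and 3.14 CPM, age ratio 2.49, 1.44 to 4.37, treatment ratio 0.551, 0.339 to 0.893). Dkk2 there was lowest in old PBS (5.77, 2.40 and 5.92 CPM, age ratio 0.415, 0.223 to 0.732, treatment ratio 2.47, 1.42 to 4.57). Old PBS endothelial-like cells also had a lower median UMI count, 3909 against 11248.5 in young PBS and 7239 in old rMETRNL. Their summed level of 12 macrophage/monocyte markers, all detected, was 1082 CPM against 524 and 955 CPM. The part of either in these ratios was not tested.

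Of 12 members with at least 50 UMIs in endothelial-like cells, 4 were past 1.5-fold between old PBS and young PBS, where 18.5% of all 11762 genes counted were. The same 4 genes (Fzd1, Fzd5, Fzd7 and Dkk2) were past it between old rMETRNL and old PBS, where the share of all genes was 13.3%. The intervals of Fzd1 included 1 in both. Both comparisons use the old PBS library, so that a gene off in that library alone would be counted in both.

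Fzd3 was highest in MuSC/myoblast-like cells of the ranked classes, at 13.1, 17.5 and 15.5 CPM, and neither ratio passed 1.5-fold. Fzd7, a receptor of muscle stem cells, was at 10.5, 8.05 and 11.8 CPM in MuSC/myoblast-like cells and 17.1, 10.8 and 21.0 CPM in myocyte-like cells, the highest ranked class when libraries were summed. In myocyte-like cells its age ratio was 0.629 (0.401 to 0.966) and its treatment ratio 1.95 (1.25 to 3.1). Fzd2 was at 20.9, 5.21 and 7.22 CPM in myocyte-like cells, with a ratio of old PBS to young PBS of 0.249 (0.134 to 0.433). Myocyte-like cells also held Fzd5 at 10.2, 3.82 and 6.56 CPM (age ratio 0.374, 0.175 to 0.732) and Fzd4 at 4.89, 3.13 and 7.54 CPM (treatment ratio 2.41, 1.08 to 5.92). The differences in cell number and depth given for Wnt4 apply to these values too. Fzd9, with 130 UMIs in all kept cells, was highest in myocyte-like cells when libraries were summed, at 2.89, 3.13 and 0.984 CPM on 13, 9 and 3 UMIs, and in a different class in each library. Of 15 members counted in MuSC/myoblast-like cells, 1 was past 1.5-fold between old PBS and young PBS and 4 between old rMETRNL and old PBS, against 10.7 and 9.59% of all genes. Of these calls, Lgr5 and Fzd5 in the second comparison had intervals that left out 1. Fzd5 was at 6.0, 6.68 and 4.15 CPM, with a treatment ratio of 0.621 (0.392 to 0.994).

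In dendritic-like cells 7 members had at least 50 UMIs. Between old PBS and young PBS 6 of them were past 1.5-fold, against 15.5% of all 9738 genes counted there, and between old rMETRNL and old PBS 3 were, against 12.2%. Of these, the intervals of Sfrp2 in both and of Fzd1 in the first included 1. Fzd5 was at 5.04, 10.2 and 4.75 CPM, so that old PBS was the highest (age ratio 2.03, 1.25 to 3.3, treatment ratio 0.465, 0.286 to 0.752). Fzd7 was at 5.50, 9.48 and 7.34 CPM (age ratio 1.72, 1.07 to 2.79) and Lrp5 at 2.90, 5.83 and 4.61 CPM (age ratio 2.01, 1.06 to 3.88). Fzd1 was instead highest in old rMETRNL, at 4.89, 3.16 and 9.65 CPM (treatment ratio 3.05, 1.67 to 6.03). These 4 receptors rested on 13 to 67 UMIs in a library.

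Lrp6 and Lrp5 were detected in every class. Lrp6 was highest in tenocyte-like cells at 94.3, 98.8 and 103 CPM and stood at 77.6, 84.9 and 76.7 CPM in FAP-like cells. Lrp5 was highest in endothelial-like cells at 33.6, 36.7 and 32.1 CPM. In FAP-like cells Lrp5 was at 22.0, 25.6 and 18.3 CPM, with a ratio of old rMETRNL to old PBS of 0.716 (0.648 to 0.791).

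Macrophage/monocyte-like cells held Lrp6 and Fzd7 at a far larger share of the FAP-like level than they held FAP markers. Lrp6 was at 46.2, 56.1 and 51.1 CPM, which was 59.5, 66.1 and 66.6% of the FAP-like level in the same library. Fzd7 was at 11.8, 11.4 and 14.9 CPM, or 123, 90.3 and 135% of the FAP-like level. The 12 FAP markers in macrophage/monocyte-like cells had a median of 0.371, 0.423 and 0.414% of their FAP-like level. Single markers ranged from 0.213 to 16.6%, 0.236 to 6.26% and 0.285 to 12.4%. Sfrp2 was close to those medians, at 0.333, 0.385 and 0.441% of its FAP-like level. Its order among libraries in macrophage/monocyte-like cells (3.75, 1.81 and 3.32 CPM) was that of FAP-like cells. Rspo1, Wnt6 and Fzd4 were lowest in old PBS, at 0.281, 0.112 and 0.232 CPM, 0.903, 0.436 and 0.544 CPM, and 0.873, 0.507 and 0.855 CPM. Sfrp4 was at 0.171, 0.456 and 0.428 CPM, which was 0.462, 0.822 and 0.898% of its FAP-like level, and it was also higher in both old libraries in tenocyte-like cells. The part of RNA from other cells in the Sfrp2 and Sfrp4 values was not tested. Of 19 members counted in this class, 7 were past 1.5-fold between old PBS and young PBS, against 13.2% of all genes, and 5 between old rMETRNL and old PBS, against 9.80%. None of the genes so counted was above 3.75 CPM in any library. Fzd1, at 0.963, 2.38 and 1.73 CPM, had a ratio of old PBS to young PBS of 2.47 (1.94 to 3.17). Sfrp5 was at 0.0903, 0.588 and 0.169 CPM, and glial-like cells, where Sfrp5 stood at 236, 341 and 307 CPM, numbered 16, 66 and 43 in the same libraries. Among the ranked classes Sfrp5 was highest in myocyte-like cells, on 0, 1 and 5 UMIs. The part of glial-like cells in the macrophage/monocyte-like value was not tested. Frzb, with 83.7, 81.7 and 94.7 CPM, and Fzd3, with 83.7, 121 and 72.5 CPM, were also high in the small glial-like class.

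Of the 35 expressed members, 6 were ligand-binding antagonists and 2 were Dickkopf genes. Sfrp2 and Sfrp1 were highest in FAP-like cells, where Sfrp2 stood at rank 152, 308 and 203 of 14226 genes in young PBS, old PBS and old rMETRNL. Wif1, Sfrp4, Dkk2 and Dkk3 were highest in tenocyte-like cells, in every library.

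Sfrp2, with 50747, 14313 and 33112 UMIs in FAP-like cells, was at 1126 CPM (1116 to 1136), 471 CPM (464 to 479) and 753 CPM (745 to 761). The young library was highest, old PBS lowest and old rMETRNL between them. Its age ratio was 0.419 (0.411 to 0.427) and its treatment ratio 1.6 (1.57 to 1.63). After thinning to 2000 UMIs, 55.7% (53.2 to 58.1), 29.9% (27.5 to 32.5) and 44.9% (42.5 to 47.3) of FAP-like cells had an Sfrp2 UMI. Unthinned, the shares were 84.7, 58.7 and 72.2%. Among positive cells the mean was 3.87, 2.51 and 3.17 UMIs, so both the share and the level per positive cell followed the same order. In macrophage/monocyte-like cells the thinned share was 0.915, 0.563 and 0.642%. Thinning left out 3, 21 and 23 FAP-like cells.

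Sfrp1, a close relative of Sfrp2, differed little between libraries in FAP-like cells. These held 406, 368 and 377 CPM (age ratio 0.907, 0.886 to 0.928, treatment ratio 1.02, 1.0 to 1.05). In tenocyte-like cells Sfrp1 was at 9.27, 32.3 and 8.16 CPM from 40, 67 and 32 UMIs (age ratio 3.49, 2.32 to 5.29, treatment ratio 0.253, 0.160 to 0.390). The summed level of 12 macrophage/monocyte markers in tenocyte-like cells, all detected, was 764, 2291 and 1179 CPM, with old PBS the highest. When cells holding a UMI of Ptprc, which marks blood-derived cells, were left out, 176, 106 and 188 tenocyte-like cells remained, and those markers stood at 203, 251 and 274 CPM. The Sfrp1 ratios were then 0.871 and 0.969, neither past 1.5-fold and the first turned in direction. With doublet calls kept the first was 1.09, while the macrophage/monocyte markers stood at 1121, 2505 and 1358 CPM. Macrophage/monocyte-like cells themselves held Sfrp1 at 1.29, 1.19 and 0.998 CPM. The part of RNA from other cells in the Sfrp1 ratios was not tested. Sfrp2 in tenocyte-like cells was at 244, 193 and 218 CPM, with neither ratio past 1.5-fold.

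Sfrp4 was at 109 CPM (99.5 to 119), 312 CPM (289 to 337) and 461 CPM (440 to 483) in tenocyte-like cells. Both old libraries were above the young one, and old rMETRNL was the highest. Its age ratio was 2.86 (2.54 to 3.23), or 3.08 without Ptprc cells, and its treatment ratio 1.48 (1.35 to 1.62). In FAP-like cells Sfrp4 was at 36.9, 55.5 and 47.6 CPM (age ratio 1.5, 1.40 to 1.61, or 0.986 with sub-clusters weighted equally).

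Wif1 went the other way. Tenocyte-like cells held 184 CPM (172 to 197), 83.4 CPM (71.4 to 96.8) and 114 CPM (104 to 126). Both old libraries were below the young one, and old PBS was the lowest (age ratio 0.453, 0.382 to 0.534, treatment ratio 1.37, 1.15 to 1.65). FAP-like cells held 41, 5 and 10 Wif1 UMIs, that is, 0.910, 0.165 and 0.227 CPM, with a ratio of old PBS to young PBS of 0.181 (0.0558 to 0.458). This ratio was 0.719, on 25 UMIs and short of 1.5-fold, when clusters were made at resolution 0.4. The Mmp3 sub-cluster of FAP-like cells held 34 of the UMIs, at 5.68, 0.209 and 0.164 CPM.

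Dkk2 was at 45.4, 105 and 129 CPM in tenocyte-like cells, and at 29.3, 44.3 and 40.8 CPM in FAP-like cells. Both old libraries were above the young one in either class. The ratio of old PBS to young PBS was 2.30 (1.89 to 2.81) in tenocyte-like and 1.51 (1.40 to 1.63) in FAP-like cells, and the ratios of old rMETRNL to old PBS were 1.23 (1.05 to 1.45) and 0.919 (0.856 to 0.988). The FAP-like ratio of old PBS to young PBS was 1.16 with sub-clusters weighted equally and 1.36 at clustering resolution 1.6. Dkk3, a divergent member of its family, was at 65.8, 130 and 67.0 CPM in tenocyte-like cells. Old PBS alone was high there (age ratio 1.97, 1.66 to 2.34, treatment ratio 0.517, 0.435 to 0.615), and the ratios were 2.09 and 0.513 without Ptprc cells. Frzb, highest in FAP-like cells of the ranked classes when libraries were summed, was at 2.88, 1.55 and 1.89 CPM there, with a ratio of old PBS to young PBS of 0.537 (0.376 to 0.755), or 0.841 with its sub-clusters weighted equally.

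**Figure D2:**
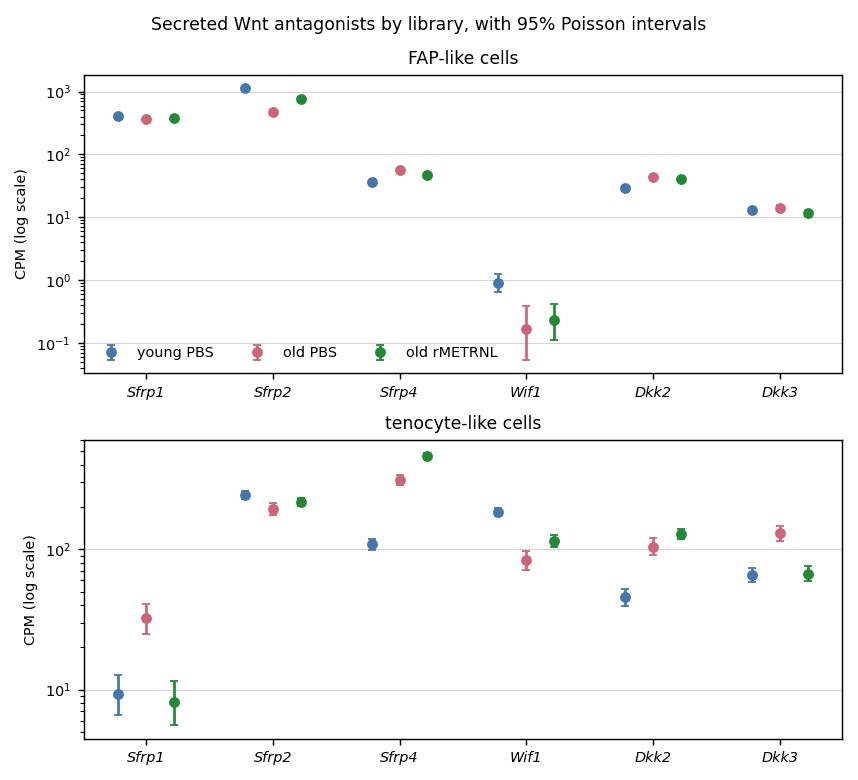
Levels of 6 secreted antagonists (x axis) in CPM on a log axis, in FAP-like cells above and tenocyte-like cells below, with 1 point per library and bars for 95% Poisson intervals (counting error only). In FAP-like cells Sfrp2 is lowest in old PBS at 471 CPM, and in tenocyte-like cells Sfrp4 and Dkk2 are higher, and Wif1 lower, in both old libraries than in young PBS.

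Over the 21 members with at least 50 UMIs in tenocyte-like cells, 6 were higher by 1.5-fold in old PBS than in young PBS, against 9.04% of all 9725 genes counted in the class, and 4 were lower, against 8.42%. The 6 were Dkk2, Dkk3, Sfrp1, Sfrp4, Wnt2 and Wnt9a, and the 4 were Fzd4, Fzd5, Rspo2 and Wif1. The median log2 ratio of the members was -0.062 beside -0.0020 for all genes, and the members lay on both sides of it. In old rMETRNL against old PBS, 2 were higher (Rspo2 and Wnt11), against 6.72% of all genes, and 2 lower (Dkk3 and Sfrp1), against 7.55%. The medians were 0.097 and -0.018. Sfrp4, at a treatment ratio of 1.48, was past 1.5-fold in 4 of 7 alternatives (1.42 to 1.56). Fzd5 in tenocyte-like cells was at 19.9, 12.5 and 15.3 CPM (age ratio 0.629, 0.389 to 0.985), and the intervals of Fzd4 included 1. Without Ptprc cells, Sfrp1 and Fzd5 (0.735) were no longer past 1.5-fold between old PBS and young PBS, and Wnt5a (0.613) was. Between old rMETRNL and old PBS Sfrp1 then fell short, while Wnt5a (1.80), Wnt4 (0.663), Fzd8 (0.662) and Lrp5 (0.648) passed.

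The sequences just before the start sites of 3 antagonists whose levels parted between libraries are shown because the libraries differed in opposite directions for them: Sfrp2 (lower in old PBS FAP-like cells), Dkk2 (higher) and Wif1 (lower in old PBS tenocyte-like cells). Each is the 250 bases before the RefSeq start, build GRCm38.p6, plus strand, at chr3:83766071-83766320, chr3:132085042-132085291 and chr10:121033754-121034003. The genes themselves span chr3:83766321-83774316, chr3:132085292-132180304 and chr10:121033960-121100650 on GRCm38. The Wif1 gene starts upstream of its RefSeq start in that annotation, so the end of its window lies inside the gene as given there. Capitals mark a CCAAT box (CCAAT or ATTGG) or a TATA box (TATAAA or TTTATA) on either strand.
Sfrp2: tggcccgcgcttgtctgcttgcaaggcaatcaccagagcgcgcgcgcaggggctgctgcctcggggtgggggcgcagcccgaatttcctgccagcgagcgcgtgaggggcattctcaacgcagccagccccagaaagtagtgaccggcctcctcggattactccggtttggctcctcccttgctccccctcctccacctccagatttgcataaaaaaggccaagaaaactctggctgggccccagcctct
Dkk2: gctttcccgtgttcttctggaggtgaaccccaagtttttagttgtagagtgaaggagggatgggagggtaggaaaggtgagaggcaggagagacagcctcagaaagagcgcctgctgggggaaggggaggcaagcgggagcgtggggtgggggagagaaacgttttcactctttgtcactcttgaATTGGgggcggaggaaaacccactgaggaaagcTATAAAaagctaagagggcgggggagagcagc
Wif1: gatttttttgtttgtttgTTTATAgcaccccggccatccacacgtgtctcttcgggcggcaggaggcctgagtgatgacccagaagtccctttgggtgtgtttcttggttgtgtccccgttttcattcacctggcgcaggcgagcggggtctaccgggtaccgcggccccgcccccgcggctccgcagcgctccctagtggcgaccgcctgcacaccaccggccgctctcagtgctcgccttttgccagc

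Of these 3 windows, Dkk2 held 1 CCAAT box and 1 TATA box, Wif1 held 1 TATA box and Sfrp2 neither. The core of the motif bound by the TCF/LEF partners of β-catenin (CTTTGA or TCAAAG) was in none of the 3. It was in 5 of the 33 promoter windows found for 30 of the 47 members, and in 13.8% of all 32851 windows of that length. A CCAAT box was in 10 of the 33 and 33.8% of all, and a TATA box in 5 of the 33 and 12.4% of all. No motif contains another, and a match describes the letters of the window and not a bound site.

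Axin2, the feedback target, was scarce in FAP-like cells. There were 55, 51 and 34 UMIs, that is, 1.22 CPM (0.919 to 1.59), 1.68 CPM (1.25 to 2.21) and 0.773 CPM (0.535 to 1.08). The old rMETRNL library was the lowest. Its age ratio was 1.38 (0.922 to 2.05), and old rMETRNL was at 0.460 of old PBS (0.289 to 0.725). In MuSC/myoblast-like cells Axin2 was at 6.18, 5.30 and 6.48 CPM, with no departure beyond counting error. It was highest in T/NK-like cells of every library, at 15.6 CPM (10.1 to 23.0), 40.8 (31.4 to 52.1) and 25.8 (16.3 to 38.7), from 205, 186 and 124 cells, and the ratio of old PBS to young PBS was 2.62 (1.63 to 4.35). Of 3 members counted in T/NK-like cells 2 were past 1.5-fold in that comparison, against 15.2% of all 6734 genes.

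Taking FAP-like cells as a class, 30 of the 47 members had at least 50 UMIs. Against young PBS, 4 of the 30 were higher by 1.5-fold in old PBS, where 7.45% of all 14226 genes counted in the class were, and 7 were lower, where 6.64% of all genes were. The 4 were Dkk2, Sfrp4, Wnt10b and Wnt6, and the interval of Wnt6 (ratio 1.63, 0.860 to 3.09) included 1. The 7 were Sfrp2, Rspo3, Rspo2, Frzb, Fzd6, Lgr5 and Wif1, and every interval of the 7 lay below 1. Wif1 rested on 41, 5 and 10 UMIs, and its ratio was 0.719 at clustering resolution 0.4. This split of 4 higher and 7 lower was 1 and 7 at clustering resolution 1.6, 2 and 7 at 0.4, 3 and 10 with a gate on Pdgfra, 3 and 5 with sub-clusters weighted equally, and 0 and 5 at 2-fold. The genes changed too: with equal weights the 3 higher were Wnt6 (2.24), Axin2 (1.72) and Fzd7 (1.54), while Dkk2, Sfrp4 and Wnt10b fell short. The median log2 ratio was -0.018 over the members (order-statistic interval -0.41 to 0.13) and -0.036 over all genes.

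In old rMETRNL against old PBS, 4 of the 30 were higher (Sfrp2, Rspo2, Wnt2 and Fzd6), against 4.67% of all genes, and 1 was lower (Axin2), against 5.20%. The split of 4 higher and 1 lower was not steady: it was 5 and 5 with doublet calls kept, 6 and 4 with the stricter cell filter, 7 and 2 with per-cell means, 5 and 4 with a gate on Pdgfra, 4 and 4 with removed sub-clusters kept, and 3 and 3 with sub-clusters weighted equally. Fzd6 was at 1.89, 0.889 and 1.39 CPM, with an age ratio of 0.472, and the interval of its treatment ratio (1.56, 0.977 to 2.55) included 1. That ratio was 1.39 with doublet calls kept and 1.45 with the Pdgfra gate. The median log2 ratio was -0.10 (-0.22 to 0.27) over the members and 0.013 over all genes. Both comparisons share the old PBS library. With that library as the shared term, Sfrp2, Rspo2 and Fzd6 were lower in old PBS than in young PBS and higher in old rMETRNL than in old PBS by 1.5-fold, Fzd6 within counting error in the second, whereas Rspo3, Frzb, Wif1 and Lgr5 were not past 1.5-fold in the second comparison. In that second comparison Wif1 (1.38) nonetheless passed in 5 of 11 alternatives, with a range of 0.789 to 2.32. Lgr5 (0.677) passed in 4 of 11, with a range of 0.644 to 0.782. FAP-like cells of the 3 libraries had summed macrophage/monocyte markers at 192, 218 and 232 CPM, with all 12 detected, beside FAP markers at 32849, 39442 and 32958 CPM.

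**Figure D3:**
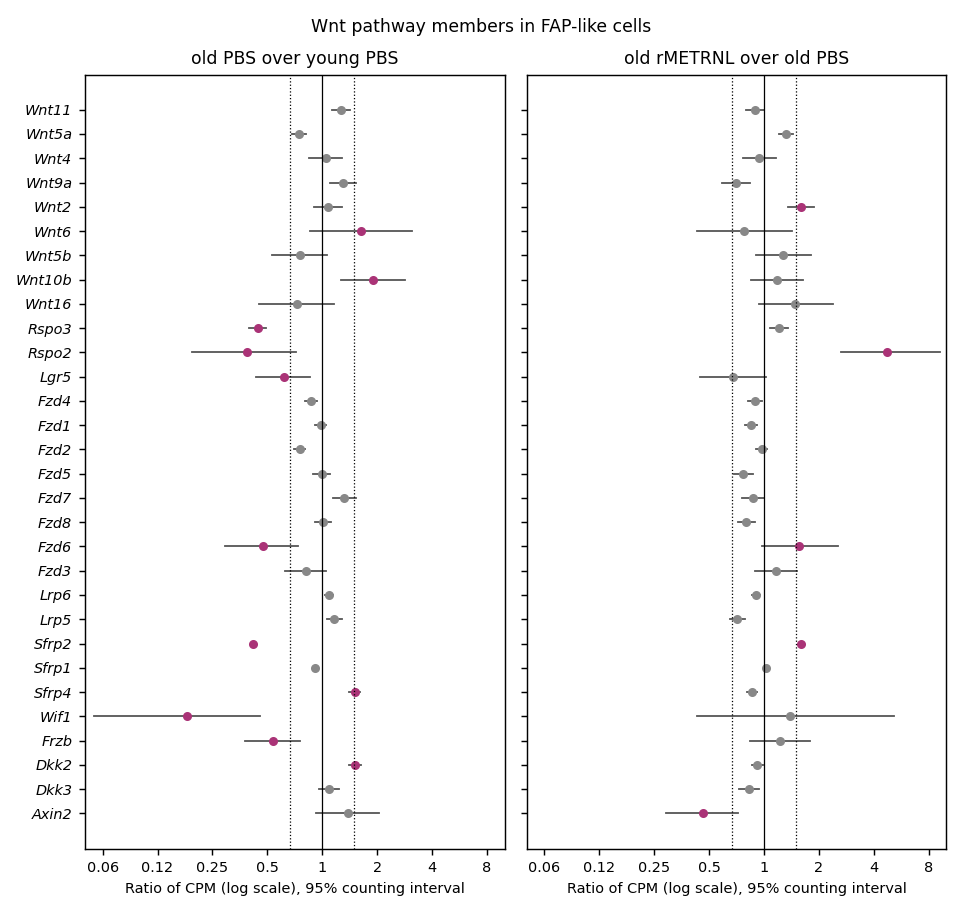
Ratio of CPM (log axis) for the 30 members with at least 50 UMIs in FAP-like cells, old PBS over young PBS on the left and old rMETRNL over old PBS on the right, with bars for 95% counting intervals and dotted lines at 1.5-fold either way. Coloured points are past 1.5-fold: 11 on the left, among them Sfrp2 at 0.419 and Rspo3 at 0.442, and 5 on the right, from Axin2 at 0.460 to Rspo2 at 4.73.

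Of 49 other pathway genes listed (intracellular components, other receptors and known targets), 39 had at least 50 UMIs in FAP-like cells. Between old PBS and young PBS, 1 was higher and 2 were lower by 1.5-fold, against 7.45 and 6.64% of all genes. Myc, a growth-promoting target, was at 206 CPM in young PBS and 309 in old PBS (age ratio 1.5, 1.46 to 1.54). Ccn4, a matricellular target also called Wisp1, was at 140 and 92.8 CPM (0.662, 0.633 to 0.692), and Ptk7, a receptor of the polarity branch, at 16.5 and 8.63 CPM (0.521, 0.451 to 0.601). Between old rMETRNL and old PBS, 0 of the 39 were past 1.5-fold in either direction, against 4.67% of all genes higher and 5.20% lower, and Myc, Ccn4 and Ptk7 had ratios of 0.758, 1.08 and 1.20.

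FAP-like cells were not uniform. Clustered again, without the members, they gave 9 sub-clusters that differed widely in antagonists and ligands. Dkk2 and Sfrp4 were highest in the sub-cluster led by Myoc and Clu, at 283 and 495 CPM, against 14.1 and 6.35 CPM in the lowest. Wnt2 and Wnt10b were highest in the Pi16 and Sema3c sub-cluster, known as a progenitor state of connective tissue, at 66.2 and 17.0 CPM. Wnt2 was at or below 10.9 CPM in each of the others. Within the Pi16 sub-cluster Wnt2 was at 73.2, 52.0 and 70.4 CPM, so that old PBS was the lowest there (age ratio 0.710, 0.569 to 0.883, treatment ratio 1.35, 1.11 to 1.66). Wnt10b there was at 12.0, 17.3 and 19.8 CPM, and both its intervals included 1. The Pi16 sub-cluster took 7.54, 11.3 and 12.8% of FAP-like cells. Sfrp2 was highest in the Cxcl13 sub-cluster, at 1320 CPM, and stood at 6.17 CPM in the 117 cells led by Hmcn2 and Crispld2.

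The sub-clusters took different shares of the libraries. Of all FAP-like cells, 4.54, 9.94 and 6.41% were in the Myoc sub-cluster. The Mmp3 sub-cluster, which was also marked by Il6, held 13.2, 28.5 and 14.7%, and the Swt1 sub-cluster 22.6, 9.79 and 12.3%. The Hmcn2 sub-cluster held 13, 69 and 35 cells. Since each group had 1 library, a state and a library cannot be told apart where 1 library supplied most of a sub-cluster.

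Sfrp2 was lower in old PBS than in young PBS in each of the 8 sub-clusters with at least 50 UMIs, with ratios from 0.198 to 0.635. It was higher in old rMETRNL than in old PBS in each of the 8, with ratios from 1.06 to 2.31. In the Swt1 sub-cluster the levels were 1539, 511 and 1182 CPM, and in the Inhba sub-cluster 1177, 748 and 793 CPM. The cells of these sub-clusters come from the same 3 libraries, so they are not 8 repeats of the comparison. Rspo3 was lower in old PBS than in young PBS in 7 of 8 sub-clusters, and in the Pi16 sub-cluster it was at 16.8, 25.6 and 9.57 CPM instead.

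Dkk2 and Sfrp4 behaved otherwise. In the Myoc sub-cluster Dkk2 was at 238, 288 and 319 CPM and Sfrp4 at 411, 464 and 609 CPM, and the ratios of old PBS to young PBS were 1.21 (1.03 to 1.41) and 1.13 (1.0 to 1.27), short of 1.5-fold. With all sub-clusters given equal weight in every library, the ratio of old PBS to young PBS was 1.16 for Dkk2 and 0.986 for Sfrp4, against 1.51 and 1.5 for the class as a whole. The same weighting put Frzb at 0.841 and Lgr5 at 0.854, neither past 1.5-fold, against 0.537 and 0.613 for the class. Sfrp2 was then at 0.484 and Rspo3 at 0.477. The most Axin2 UMIs, 51, were in the sub-cluster led by Fos and Hspb1, immediate-early and heat-shock genes that tissue dissociation also induces. The level there was 2.17, 6.32 and 1.23 CPM (age ratio 2.91, 1.52 to 5.70, treatment ratio 0.195, 0.0797 to 0.434).

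**Figure D4:**
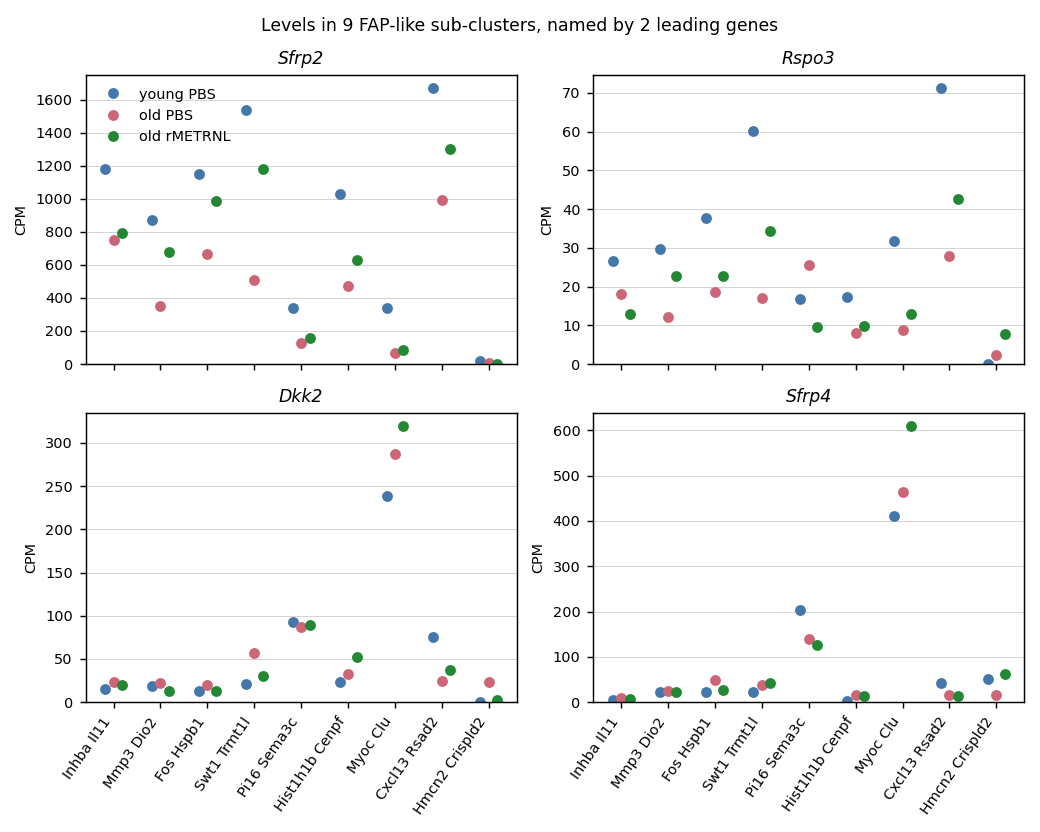
Levels (CPM, linear axes from 0) of Sfrp2, Rspo3, Dkk2 and Sfrp4 in 9 FAP-like sub-clusters, each named by 2 leading genes, with 1 point per library. Sfrp2 in old PBS is below young PBS in each of the 8 sub-clusters with at least 50 of its UMIs, whereas the levels of Dkk2 and Sfrp4 are highest in the Myoc sub-cluster, at 238 to 319 and 411 to 609 CPM.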

How the data were processed

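The deposited files held raw UMI counts per gene and barcode, which the authors made with Cell Ranger. The file headers name version 5.0.0, the submitters' processing notes list 5.0.0 and 3.1.0, and the build is mm10 per the labels. Coordinates and promoters are from GRCm38 tables. The Wnt members and gene lists were chosen with earlier results of these data known.

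Barcodes needed 500 detected genes and a mitochondrial share below 10%. Scrublet's own threshold called 230, 3 and 0 doublets, so the highest scores were removed at 0.8% per 1000 barcodes (1118, 1117 and 1423 cells). With scanpy 1.11.5, 2000 variable genes without the members, 30 principal components and 20 neighbours were clustered by Leiden at resolution 0.8. Clusters were named from fixed markers, by conditions revised after the clusters were seen. FAP-like cells were clustered again and 2 of 11 sub-clusters led by other classes were removed.

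UMIs were summed per class and library and given as CPM, per 1000000 UMIs. Intervals were exact at 95% (Poisson, binomial, or conditional on the sum of 2 counts) and cover counting error only, which is smallest for the most sequenced classes. The age and treatment comparisons were between 2 libraries each, with no test. Past 1.5-fold was counted for genes with at least 50 UMIs over the 3 libraries in the class, and medians added 0.5 to each count. Every member with at least 50 UMIs over all kept cells was named with the class of its highest level. Values per library were given in that class where it held 50 UMIs, and wherever a ratio was past 1.5-fold with an interval leaving out 1. Fzd5 in T/NK-like cells was given as a share of its FAP-like level instead. Other pathway genes were named only where that held in FAP-like cells. Calculations were tested on simulated data. Alternatives were doublets kept, stricter cells, deep cells, per-cell means, median-ratio scaling, other resolutions, a Pdgfra gate, members in the clustering, removed sub-clusters kept, 200 UMIs and 2-fold. Equal sub-cluster weights and the tenocyte-like alternatives were chosen after seeing the data.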

Additional observations from a re-analysis of the deposited data

How the results depend on the processing

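No paired analysis was possible because each group has 1 library. In FAP-like cells, between old rMETRNL and old PBS, the count of 5 members past 1.5-fold became 10 with doublet calls kept, 10 with the stricter cell filter, 9 with per-cell means, 9 with the Pdgfra gate, 8 with removed sub-clusters kept, 2 with a minimum of 200 UMIs and 2 at 2-fold. Between old PBS and young PBS the count of 11 became 7 at 200 UMIs and 5 at 2-fold; fewer genes can pass under either of these. Of the 11 ratios past 1.5-fold between old PBS and young PBS in FAP-like cells, Sfrp2, Rspo3, Rspo2 and Fzd6 were past it in all 11 alternatives, and 10 kept their direction in all. The exception was Sfrp4, at 0.986 with sub-clusters weighted equally, and the cause of that and of the other shifts in count was not tested. Sfrp2 ranged from 0.367 to 0.484 and Rspo3 from 0.380 to 0.477. Wif1 ranged from 0.104 to 0.719, Frzb from 0.464 to 0.841 and Lgr5 from 0.589 to 0.854; Wnt10b ranged from 1.49 to 2.18. Dkk2 was past 1.5-fold in 5 of the 11 and Sfrp4 in 3. Between old rMETRNL and old PBS all 5 kept their direction, and Axin2 (0.399 to 0.534) and Rspo2 (3.42 to 6.07) were past 1.5-fold in all 11. Sfrp2 ranged from 1.48 to 1.80 and passed in 10, Wnt2 from 1.33 to 1.72 and Fzd6 from 1.39 to 1.80, each passing in 9. Axin2 between old PBS and young PBS ranged from 1.13 to 1.72. In tenocyte-like cells Sfrp1 went from 3.49 to 0.871 without cells holding a Ptprc UMI and to 1.09 with doublet calls kept; of the other 9 ratios past 1.5-fold between old PBS and young PBS, each kept its direction in 7 alternatives, and 7 stayed past 1.5-fold in all. Fzd4 (0.667 with members in the clustering) and Fzd5 (0.735 without Ptprc cells) fell short in 1 each, as did Wnt11 between old rMETRNL and old PBS (1.37 with doublet calls kept). The medians over members and the count highest in FAP-like cells (8 to 11) stayed within their intervals or 1.5 times. Members at a few CPM, such as Rspo2 and Axin2, are limited by their UMI counts.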
